A study of Mus musculus with 12 samples.

Results

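The genes described here encode the kinases that phosphorylate the tail of RNA polymerase II during transcription, with their cyclins and an assembly factor: Cdk13, Cdk12, Ccnk, Cdk9, Ccnt1, Ccnt2, Cdk7, Ccnh and Mnat1. They were chosen by gene name, and all 85 exon parts listed under these 9 names were taken, of 138745 parts in the table. An exon part is a stretch of a gene whose reads were counted as 1 unit. Polyadenylated RNA came from V6.5 mouse embryonic stem cells (C57Bl/6-129, genotype Cdk13-/-; Cdk13 Tg+), in which the knocked-out Cdk13 is replaced by a Flag- and HA-tagged transgene that doxycycline switches on. Cells stayed in doxycycline or went without it for 48 h or for 72 h, with 4 libraries per condition, a biological duplicate of each of 2 clones (11-8 and 14-1). All 12 libraries carried both the knockout and the transgene, and no cells with intact Cdk13 were taken off the drug, so loss of Cdk13 and removal of doxycycline cannot be told apart. RNA integrity numbers ran from 8.9 to 9.3.

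The RNA polymerase II tail is a repeated peptide whose phosphorylation marks each stage of transcription. CDK7, with cyclin H (Ccnh) and MAT1 (Mnat1), forms the CDK-activating kinase of the initiation factor TFIIH, which acts as the polymerase leaves the promoter. CDK9 with a T-type cyclin (Ccnt1 or Ccnt2) forms P-TEFb, which releases paused polymerase into elongation. CDK12 and CDK13 are close relatives that both bind cyclin K (Ccnk) and act on elongating polymerase and on RNA processing. CDK12 is known for keeping polymerase from ending transcripts early inside introns of long genes. The comparison sets the transcripts of this kinase system itself, with and without CDK13, side by side.

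Few of the tested parts of these genes were called changed. Each of the 9 genes also has part numbers that are not listed. These are 16 of 30 in Cdk13, 17 of 32 in Cdk12 and 8 of 15 in Ccnk. Nothing can be said of such parts. A part was called changed at an adjusted p below 0.05 in the authors' DEXSeq test. DEXSeq asks whether a part takes a different share of its gene's reads, so each log2 fold change (depleted against doxycycline-treated cells) is read as relative use and not as the gene's amount of RNA. At 72 h, 2 of 72 tested parts were called (2.78%, beside 3.60% of all tested parts in the table), both of them higher (2.33% of all tested parts). Those parts lay in 2 of the 8 tested genes, beside 19.1% of all tested genes. At 48 h, 1 of 44 tested parts was called (2.27%, beside 1.62% of all tested parts), and it was higher (0.964% of all tested parts). These shares are near the background, so the counts alone set the genes apart in neither comparison. No part of the 9 genes was called lower at either time. Of all tested parts, 1.28% were called lower at 72 h and 0.633% at 48 h, so this absence is near the background too. The table gives neither unadjusted p-values nor errors of the fold changes nor library values, and the depth and replicate spread behind a result are therefore unknown.

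**Figure D1:**
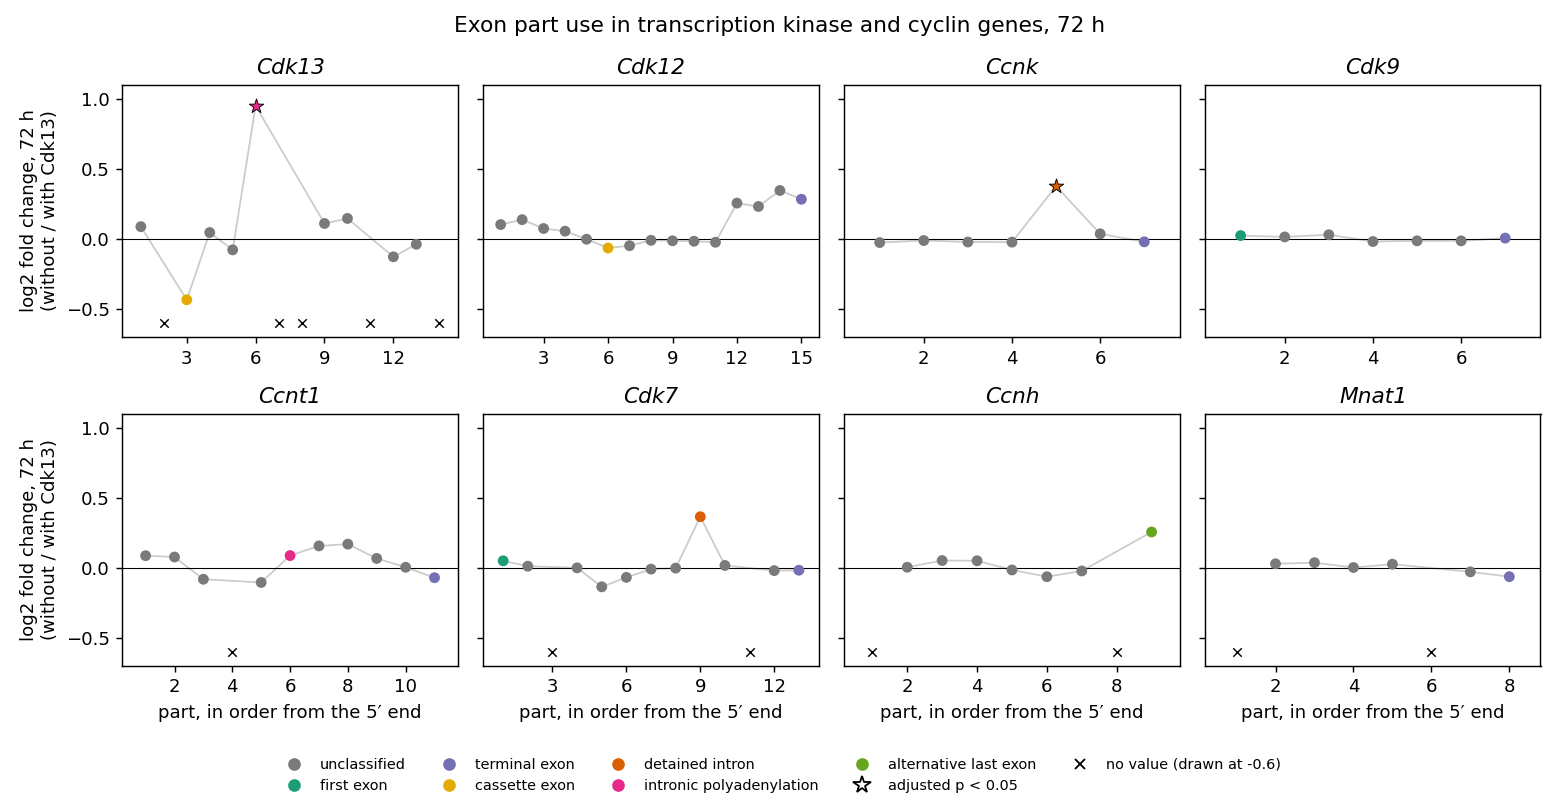
Log2 fold change at 72 h (y axis, without over with Cdk13) of each exon part in order from the 5′ end (x axis) in 8 genes; colours give the class of part, stars mark an adjusted p below 0.05, crosses mark parts with no value. Of the 72 points, 54 lie within 0.1 of 0. The called parts are Cdk13 E022 at 0.95 and Ccnk E013 at 0.38, and other points away from 0, such as Cdk13 E026 at -0.43, were not called. Ccnt2 had no value and is not drawn.

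Cdk13 and Cdk12 are built alike. In the principal GENCODE M21 transcripts, exons 4 to 11 had the same width in both genes, 8 exons and 987 bases in all, of which 775 bases (78.5%) were identical. The longest identical run was 20 bases. Exons 4 and 7 of this stretch are shown because the table classes them as cassette exons, exons that can be skipped, exon 4 in Cdk13 (part E026) and exon 7 in Cdk12 (part E007). The exon 7 sequences hold the codons of the Asp-Phe-Gly motif of the kinase active site and are a multiple of 3 bases long, while exon 4 is not. Capitals mark bases that differ between both genes. The sequences are from GENCODE M21 on GRCm38, on the plus strand for Cdk12 (chr11:98221014-98221153 and chr11:98230113-98230169) and the minus strand for Cdk13 (chr13:17764954-17765093 and chr13:17750257-17750313).
Cdk13 exon 4: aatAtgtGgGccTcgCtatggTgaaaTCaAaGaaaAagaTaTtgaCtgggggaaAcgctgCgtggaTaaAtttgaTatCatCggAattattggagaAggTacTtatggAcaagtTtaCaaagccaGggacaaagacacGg
Cdk12 exon 4: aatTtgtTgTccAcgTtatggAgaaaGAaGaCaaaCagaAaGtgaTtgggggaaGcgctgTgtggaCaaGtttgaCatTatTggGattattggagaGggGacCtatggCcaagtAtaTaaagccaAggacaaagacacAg
Cdk13 exon 7: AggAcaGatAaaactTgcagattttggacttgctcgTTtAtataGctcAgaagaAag
Cdk12 exon 7: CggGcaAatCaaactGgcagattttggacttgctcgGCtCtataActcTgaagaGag

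Cdk13, the withdrawn gene, held the highest value and the lowest. The table has no expression levels, so the withdrawal of Cdk13 itself was not checked here. Its intronic polyadenylation part E022, where a transcript can end inside an intron (chromosome 13, 17835992 to 17842090 on mm9, minus strand, 6099 bases), rose by 0.95 at 72 h (adjusted p = 0.010 in the authors' deposited table), a 1.93-fold rise in relative use. By widths and distances along the gene, E022 began directly after the 57-base exon 7 shown above, at the start of an intron of 11064 bases. Of all 1898 intronic polyadenylation parts with a value at 72 h, 6 stood higher, and 3.84% of those tested were called higher. The other 8 parts of Cdk13 with a value had a median of 0.00 in the authors' deposited table, and all of them lay in coding exons. The cassette exon E026, exon 4 above (17856788 to 17856927), had the lowest value among the 72 tested parts, -0.43 (adjusted p = 0.32) in the authors' deposited table. That value did not pass the test, although only 19 of 2630 cassette exons with a value at 72 h stood lower. The other exonic values ran from -0.13 (E010, exon 12) to 0.15 (E014, inside exon 11) in the authors' deposited table. Parts E009, E014 and E015 cover only 9, 11 and 5 bases of their exons, so their values are not those of whole exons. The 5 parts without a value were the 3′-most part E001, the intronic polyadenylation parts E017 and E027, and E012 and E021, which also lay in introns. No part of Cdk13 had an adjusted p at 48 h. Whether transgene reads and reads of the disrupted locus were separated is not stated, and how either contributes to E022 was not tested.

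Cdk12, the closest relative, had values in its kinase exons that were ordinary for the table. Over all genes, 70.2% of parts with a value at 72 h stood within 0.1 of 0, with quartiles of -0.04 and 0.07. Over exons 4 to 11, the counterparts of the Cdk13 exons above, values at 72 h ran from -0.06 (E007, exon 7) to 0.07 (E003, exon 4) in the authors' deposited table, and none was called. Exon 4 thus stood at 0.07 in Cdk12 and at -0.43 in Cdk13 in the authors' deposited table, and neither value passed the test. The 5′-most listed part, E001 (chromosome 11, 98071678 to 98072550 on mm9, inside coding exon 2), rose by 0.11 at 48 h (adjusted p = 0.0276) in the authors' deposited table. It stood at 0.10 at 72 h, where its adjusted p was 0.104 in the authors' deposited table. The next part, E002 (exon 3), had like values of 0.14 and 0.14 at 48 h and 72 h, with adjusted p of 0.282 and 0.151 in the authors' deposited table. At the 3′ end, parts E029 to E032 stood at 0.26, 0.23, 0.35 and 0.28 at 72 h in the authors' deposited table, above every exon of the principal transcript, with adjusted p from 0.176 to 0.394. They lay 3′ of that transcript, and the widths of E029, E030 and E031 (101, 114 and 107 bases) equalled exons of an 8-exon Cdk12 transcript annotated without a coding sequence. These 4 parts had no value at 48 h.

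**Figure D2:**
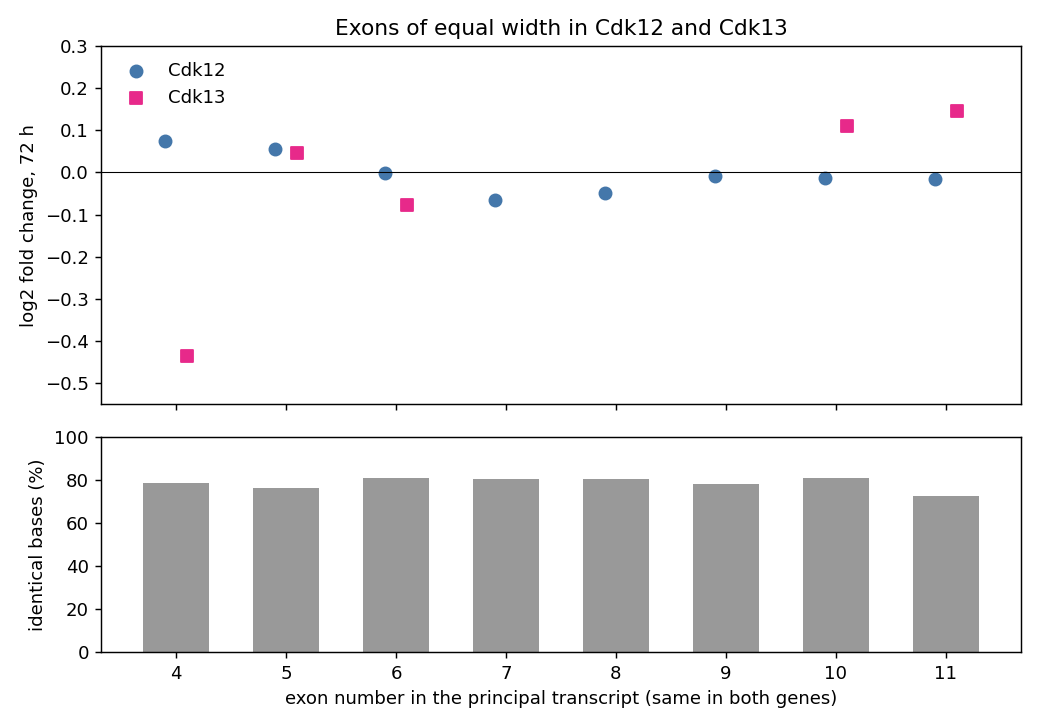
Upper panel, log2 fold change at 72 h (y axis) of the parts in exons 4 to 11 (x axis) of Cdk12 (circles) and Cdk13 (squares; exons 7 to 9 had no listed part); lower panel, share of identical bases between both genes per exon. The Cdk12 values lie between -0.06 and 0.07, and the lowest point is Cdk13 exon 4 at -0.43, which did not pass the test. Some points are parts of an exon: 5 of 117 bases (exon 10) and 11 of 132 bases (exon 11) in Cdk13, and 60 of 190 bases (exon 6) in Cdk12.

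Ccnk, the shared cyclin of both kinases, showed higher relative use of a detained intron, an intron kept in otherwise spliced transcripts. Part E013 (chromosome 12, 109434790 to 109437517 on mm9, plus strand, 2728 bases) rose by 0.38 at 72 h (adjusted p = 0.00142) in the authors' deposited table, a 1.30-fold rise. The other 6 parts stayed between -0.03 and 0.04 in the authors' deposited table, so the intron stood apart from the listed exons. Exon 9, which borders it on the 5′ side, was not listed and has no value. E013 fills most of the 2936-base intron 9, starting 207 bases after exon 9 and ending 1 base before exon 10. The exons at its borders are shown with capitals on the 3 bases next to the intron; both are coding, on the plus strand of GRCm38 (chr12:108196339-108196372 and chr12:108199309-108199383, GENCODE M21).
Ccnk exon 9: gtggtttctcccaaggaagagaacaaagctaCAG
Ccnk exon 10: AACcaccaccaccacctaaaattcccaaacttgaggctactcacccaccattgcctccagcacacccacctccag

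Exon 10 is part E014, at 0.04 (adjusted p = 0.780) in the authors' deposited table, and exon 6, the nearest listed exon on the 5′ side (E004), stood at -0.02. The terminal exon E015 stood at -0.02 (adjusted p = 0.608) in the authors' deposited table. E013 had no adjusted p at 48 h, where the 6 exonic parts ran from -0.01 to 0.03 in the authors' deposited table. Among all 2609 detained introns with a value at 72 h, 80.8% stood lower than E013, and 14.8% of tested detained introns were called higher.

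P-TEFb had 17 parts tested at 72 h and 9 at 48 h, and none was called. With 3.60% and 1.62% of all tested parts called at these times, a count of 0 among so few parts is near the background. Cdk9, its kinase, had the narrowest range of the 8 genes with values. Its 7 parts were all tested at both times and kept between -0.02 and 0.03 (72 h) and between -0.02 and 0.02 (48 h) in the authors' deposited table. Its first exon E010 stood at 0.02 and its terminal exon E001 at 0.01 at 72 h in the authors' deposited table. Ccnt1, which encodes cyclin T1, ran from -0.10 (E009, exon 4) to 0.17 (E004, exon 7) over 10 parts at 72 h in the authors' deposited table. Its terminal part E001 (chromosome 15, 98369109 to 98372799 on mm9) stood at -0.07 (adjusted p = 0.0907) in the authors' deposited table, the lowest adjusted p among the uncalled parts of the 9 genes at 72 h. Its intronic polyadenylation part E007, which directly follows exon 5, stood at 0.09 (adjusted p = 0.834) in the authors' deposited table. Ccnt2, the gene of cyclin T2, was listed with a single first exon part that was tested at neither time, so nothing can be said of it.

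The CDK-activating kinase had 24 parts tested at 72 h and 18 at 48 h, and none was called, which is again near the background of 3.60% and 1.62%. Cdk7, the kinase, carried a detained intron of its own, E012 (chromosome 13, 101481552 to 101486454 on mm9, minus strand, 4903 bases), which covers all but 1 base of intron 7. It stood at 0.36 at 72 h, close to the 0.38 of Ccnk, but its adjusted p was 0.203 in the authors' deposited table. The exons on either side, E013 and E011, stood at -0.00 and 0.02 in the authors' deposited table. The lowest Cdk7 value was that of E016, a 2-base part of exon 4, at -0.14 (adjusted p = 0.113) in the authors' deposited table, and the first exon E021 stood at 0.05. Ccnh, the cyclin H gene, ran from -0.06 to 0.05 over its 6 internal parts at 72 h, while its alternative last exon E018 stood at 0.26 (adjusted p = 0.601) in the authors' deposited table. Mnat1, whose product assembles the complex, ran from -0.06 (terminal exon E012) to 0.04 over 6 parts at 72 h in the authors' deposited table, and its lowest adjusted p was 0.497. The intronic polyadenylation parts of Ccnh (E015) and Mnat1 (E009) had no value at either time.

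The calls at 72 h fell in introns. Of the 85 parts, 62 lay in exons of the principal transcripts by width and distance, 15 in introns, 7 beyond the transcript's 3′ end and 1 could not be placed. All 62 exonic parts were tested at 72 h, with a median of -0.00 in the authors' deposited table, and none was called. With 3.60% of all tested parts called at 72 h, a count of 0 among 62 is near the background. Of the 15 intronic parts only 4 were tested. All 4 had values above 0, from 0.09 to 0.95 in the authors' deposited table, and 2 were called higher. Over all genes at 72 h, 14.8% of tested detained introns and 3.84% of tested intronic polyadenylation parts were called higher. The table's classes of detained introns and intronic polyadenylation parts behaved differently as a whole: 80.7% of all detained introns with a value stood above 0 at 72 h, and 52.7% of intronic polyadenylation parts. At 48 h, 2.12% of tested detained introns and 0.417% of tested intronic polyadenylation parts were called higher in the whole table, and no such part of the 9 genes was tested. With 4 tested introns, nothing is called particular to these genes.

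**Figure D3:**
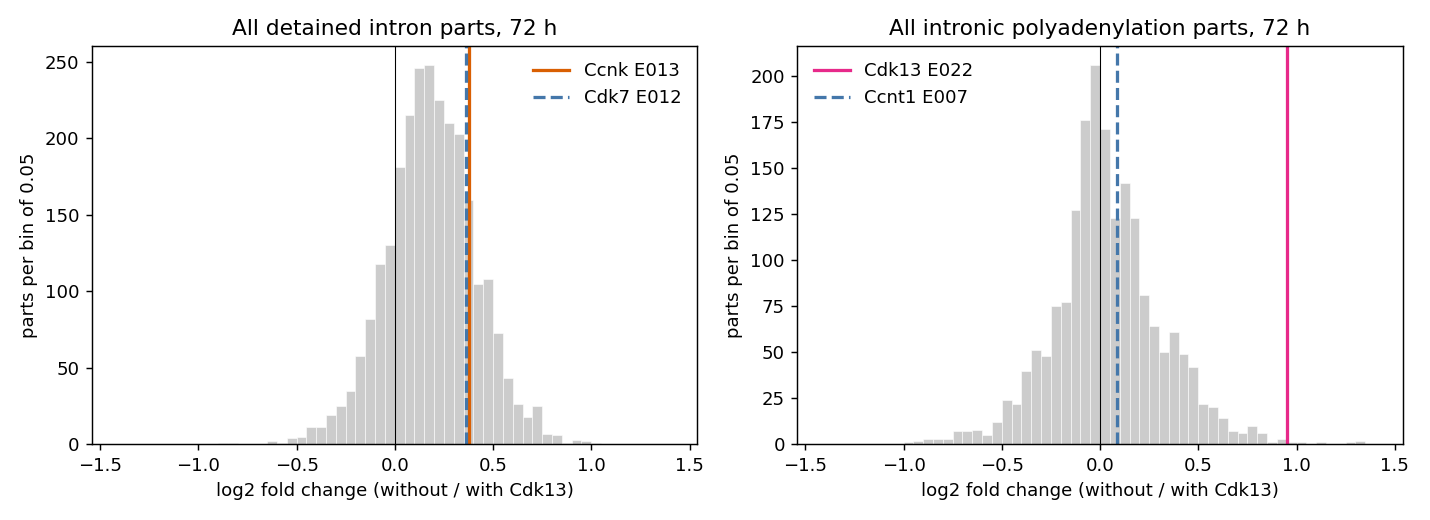
Number of parts (y axis) per bin of log2 fold change at 72 h (x axis) for all detained introns (left) and all intronic polyadenylation parts (right); lines mark the 4 tested intronic parts of the kinase and cyclin genes. Ccnk E013 (0.38) and Cdk7 E012 (0.36) lie on the upper shoulder of their class, Ccnt1 E007 (0.09) near the middle of its class and Cdk13 E022 (0.95) in its upper tail.

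Along the genes no shared slope appeared. The median over parts on the 5′ side of a gene minus that on the 3′ side was above 0 in 5 of 8 genes at 72 h, beside 69.0% of 9797 genes in the table. It was lowest in Cdk12 (-0.18), where E029 to E032 lie on the 3′ side, and highest in Ccnh (0.07). The median difference per gene was 0.01 in these genes and 0.04 over all genes. Pooled over their parts, the 5′ sides of the 8 genes had a median 0.0111 above that of the 3′ sides, beside 0.0398 over all genes. This difference has no stable direction: it was -0.0044 with genes split by bases, and 0.0276 without the Cdk12 parts E029 to E032. At 48 h it was above 0 in 3 of 6 genes, beside 75.7% of 4751 genes. First exons and terminal exons, of which 72.3% and 24.7% stood above 0 at 72 h over all genes, were not called in any of the 9 genes: the 2 first exons with a value stood at 0.02 and 0.05 at 72 h, and the 6 terminal exons ran from -0.07 to 0.28, in the authors' deposited table. Over all genes, 427 of 7169 tested first exons and 711 of 8054 tested terminal exons were called at 72 h, so that with so few members no call is near the background.

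The 44 parts with a value at both times, none of them intronic, are given side by side because both comparisons use the same control libraries. Their values ran from -0.11 to 0.14 at 48 h in the authors' deposited table, with 22 above 0 and 22 below. The parts of Cdk13 and Ccnt2 and every intronic part were without a value at 48 h, so the earlier time says nothing about the parts called at 72 h. Of parts with a value at 72 h, 54 of 72 (75%) stood within 0.1 of 0 in the authors' deposited table, beside 70.2% over all genes.

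**Figure D4:**
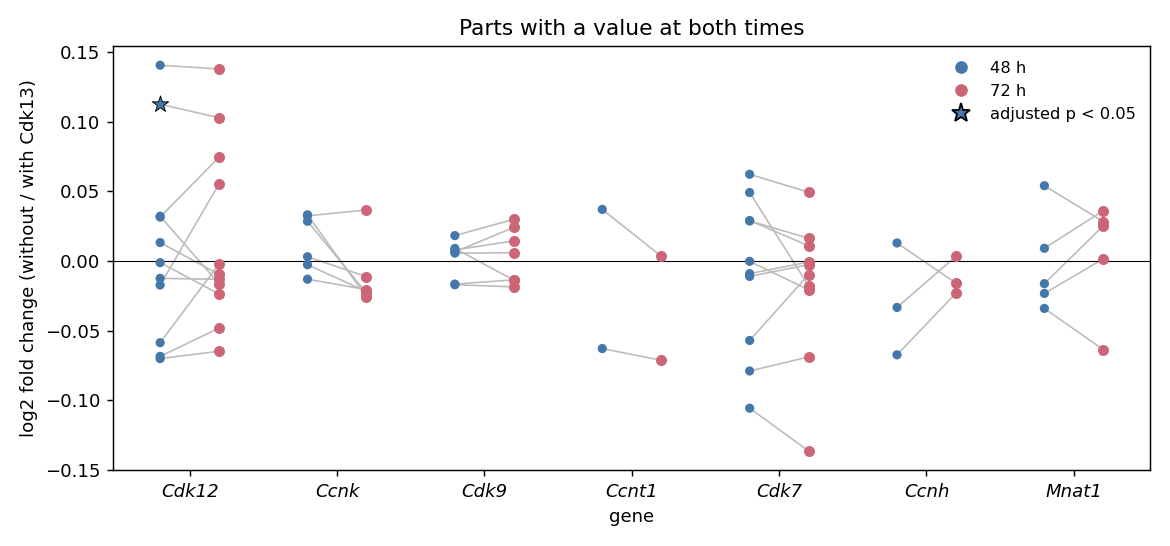
Log2 fold change (y axis) at 48 h (blue) and 72 h (red) of the 44 parts with a value at both times, by gene (x axis); lines join the same part, and the star marks the called part Cdk12 E001 at 48 h (0.11). Points of Cdk9 stay closest to 0, from -0.02 to 0.03, and both times share their controls.

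The other genes of the pathway had called parts at a share near that of genes at large. Of 38 genes, 35 were in the table (4 of them under an older name), 34 were tested at 72 h and 8 had a called part (23.5%, beside 19.1% of all tested genes), 6 of them for a rise (13.7% of all tested genes) and 2 for a fall (9.44%). At 48 h, 1 of 29 was called (3.45%, beside 7.12% of all tested genes), Supt5h for a rise (4.61%), and 0 for a fall (3.34%). Detained introns rose in Ercc3, a TFIIH helicase gene, by 0.71 (adjusted p 0.00411) and in Cdk8, the Mediator kinase gene, by 0.33 (E010, chromosome 5, 147097816 to 147099912 on mm9, adjusted p 0.0206), in the authors' deposited table. All 15 detained introns of the list had values above 0 at 72 h, from 0.02 to 0.71 with a median of 0.23, and 2 were called, in the authors' deposited table. These values are near those of all detained introns, of which 80.7% stood above 0 with a median of 0.18 and 14.8% were called higher, so they are no result about the list. Among parts classed as first exons, those of the TFIIH subunit gene Gtf2h5 (0.10, adjusted p 0.00243) and of Supt5h (0.22, adjusted p 5.04e-05), an elongation factor that P-TEFb phosphorylates, rose in the authors' deposited table. The Supt5h part, E046, is very short (chromosome 7, 29123714 to 29123725 on mm9). Supt5h had stood at 0.15 at 48 h (adjusted p = 8.33e-04) in the authors' deposited table.

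Internal parts rose in the elongation factor genes Supt6h (0.09, adjusted p 6.48e-04) and Ell (0.11, adjusted p 0.0179), in the authors' deposited table. Among factors that control P-TEFb, a part fell in Larp7 (E007, -0.11, adjusted p 0.0228), whose product binds the inhibitory small RNA, in the authors' deposited table. A part of Cdk11b, which works with L-type cyclins, fell, at -0.10 with adjusted p = 0.0346 in the authors' deposited table. No gene of the phosphatases that reverse the kinases' marks was called among 4 tested at 72 h. With 19.1% of all tested genes called, that is near the background. Of the stem cell markers, 6 of 8 had tested parts at 48 h, against 1 of 8 genes of other cells (Krt8), and at 72 h the counts were 6 and 5, while the genes tested in the whole table went from 7026 to 11600. The terminal exon E015 of Pou5f1, a stem cell transcription factor gene, was called lower at 72 h (-0.03, adjusted p = 0.0459) in the authors' deposited table. Pou5f1 was the 1 marker called in either list, 1 of 6 tested stem cell markers. Over all tested genes, 9.44% had a part called lower at 72 h, so this is near the background. Whether a part was tested is all that the table gives on their levels.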

How the data were processed

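The data were 1 deposited table of the authors' comparison. Per the file headers, the authors ran DEXSeq on exon parts and deposited, for 48 h and 72 h of depletion, each part's log2 fold change together with its adjusted p-value. Per the submitters' processing notes, STAR 2.4.1d and the mm9 build were used. Not given in the sources used here: how reads were counted, the DEXSeq version and model, and any shrinkage. The significance columns matched an adjusted p below 0.05 in all 138745 rows at both times. Parts without an adjusted p were counted as not tested.

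Parts were ordered by strand from the 5′ end. Parts were placed on GENCODE M21 principal transcripts by equal widths and distances within the gene, and no coordinates were carried between builds. No test was added. Counting and ordering were tested on simulated data, with Python 3.11.15 and pandas 2.3.3. Genes and lists were chosen with earlier results of these data known. Named were all 9 genes, each called part, and each called gene of the pathway list by its part of lowest adjusted p; 1 gene of that list is not reported here and is left out of its counts. Alternatives were other limits on the adjusted p, on width and on which parts count, and other splits of a gene.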

Additional observations from a re-analysis of the deposited data

How the results depend on the processing

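The counts are small and move with the choices. At an adjusted p below 0.01 the called parts at 72 h went from 2 to 1, in 1 gene, because Cdk13 E022 (0.95, adjusted p 0.010) sits at that limit, and the called parts at 48 h went from 1 to 0. Restricted to parts with an adjusted p at both times, 0 parts and 0 genes were called at 72 h, since neither called part was tested at 48 h. Without Cdk13, 1 part was left. Below 0.10 there were 3 called parts at 72 h, Ccnt1 E001 being added. Restricting the medians by class to tested parts removed no part, so it tests nothing. The 5′ minus 3′ difference pooled over parts, 0.0111, was -0.0044 with each gene split by bases and 0.0276 without the 4 Cdk12 parts beyond its transcript, an alternative chosen after seeing the data. No paired analysis was possible because the table holds no values per library, and for the same reason no replicate could be left out.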
